A study of Mus musculus with 6 samples.

Results

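Expression of 34 genes, 28 nuclear receptors and 6 of their coregulators chosen by gene symbol, was examined in P7 mouse cortex among 24972 genes measured by RNA sequencing. Nuclear receptors are transcription factors that bind DNA and are switched by small fat-soluble ligands such as retinoic acid, thyroid hormone, steroids and oxysterols, or act without a known ligand as orphan receptors. They work through coregulators: coactivators of the Ncoa family open chromatin at receptor targets, and corepressors such as Ncor1 and Nrip1 close it. Zmiz1 belongs to this setting because it was first described as a coactivator of a steroid hormone receptor. In the postnatal cortex, thyroid hormone, retinoids and glucocorticoids time the maturation of neurons and glia through these receptors.

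The 3 wildtype libraries came from Zmiz1f/f mice and the other 3, labelled Zmiz1-KO and called KO-labelled below, from Zmiz1f/f;Emx1Cre mice, so all animals carried the floxed Zmiz1 allele and the groups differed by the Cre. Cre under Emx1 acts in the lineage of cortical excitatory neurons and glia, and leaves interneurons, microglia and vessels of the dissected tissue with an intact gene. The labels do not say whether a library held 1 animal or a pool, and they give no sex, litter or sequencing run, so the tests measure the spread between these libraries, which may be technical in part. The labels also speak of progenitor cells, but excitatory neuron, interneuron, astrocyte, oligodendrocyte lineage, microglia and endothelial markers were all detected in every library, as in whole cortex.

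Values are read counts normalized by the authors with DESeq2, called normalized counts here. The libraries summed to 32661979 to 33239707 normalized counts. This stands for an estimated 15486928 to 17848076 counted reads each, if the smallest step between low values is 1 read. Zmiz1 itself, on chr14:25459185-25666743 (GRCm38), was at 8119, 7929 and 7461 normalized counts in wildtype and at 9944, 9779 and 9660 in the KO-labelled libraries, thus higher where the label says knockout (log2 fold change 0.32 ± 0.040 SE, adjusted p = 0.00125). This value covers the whole gene and is no check of the floxed exons. The study also measured Zmiz1 by qPCR, which was not analysed here. Emx1, the gene that drives the Cre, fell from 763 ± 67.6 to 529 ± 55.1 (SD, n = 3; adjusted p = 0.0150). Xist was high and Ddx3y at or near 0 in 1 library of each group, wildtype replicate 3 and KO-labelled replicate 2. Wildtype replicate 1 stood apart from the other libraries, with low sums of markers of striatal projection neurons (11158 normalized counts, against 15105 to 18208 in the other 5 libraries) and of choroid plexus (539, with 621 in KO-labelled replicate 2 and 3519 to 8814 in the others).

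Promoter sequences of 3 members are shown first, because the results below refer to them. Receptors of this family recognise hexamers close to AGGTCA, often as 2 direct repeats whose spacing selects the receptor pair. The 250 bases before each RefSeq gene start (GRCm38.p6) were searched on both strands for the hexamer AGGTCA, for its variant AGTTCA, for the variant GGTTCA and for the variant GGGTCA, and for direct repeats of any of these 4 with a spacer of 1 to 5 bases. The table held 49 windows for 30 of the 34 members, and 32851 windows in all. A direct repeat with a spacer of 5 bases was found in 1 of the 49 member windows, that of Rarb, and in 0.0883% of all windows. It spans positions -53 to -37 before the gene start and is the textbook retinoic acid response element through which retinoic acid raises its own receptor. The 30 bases around it are chr14:16575506-16575535 on the minus strand, with the repeats and the spacer in capitals:

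Rarb: gggaagGGTTCACCGAAAGTTCActcgcat

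Rxrg had the largest difference among the retinoid receptors, and Nrip1 was the only member past the threshold. Windows of both are given with any of the 4 hexamers in capitals. Both genes have 2 windows in the table, and the one with more hexamers is shown: the other held 1 hexamer for Rxrg, on the opposite strand at -145 to -140 before its first start, and 0 for Nrip1. The Rxrg window precedes its second start, at chr1:167618015-167618264 on the plus strand, with hexamers at positions -164 to -159 and -88 to -83. The Nrip1 window is chr16:76373828-76374077 on the minus strand, with hexamers at -219 to -214 and -78 to -73, and at -132 to -127 on the opposite strand.

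Rxrg: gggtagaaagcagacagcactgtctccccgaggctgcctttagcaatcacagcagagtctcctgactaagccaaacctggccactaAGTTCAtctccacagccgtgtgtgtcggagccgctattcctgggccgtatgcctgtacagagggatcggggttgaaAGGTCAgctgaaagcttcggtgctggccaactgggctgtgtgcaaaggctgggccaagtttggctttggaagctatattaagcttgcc

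Nrip1: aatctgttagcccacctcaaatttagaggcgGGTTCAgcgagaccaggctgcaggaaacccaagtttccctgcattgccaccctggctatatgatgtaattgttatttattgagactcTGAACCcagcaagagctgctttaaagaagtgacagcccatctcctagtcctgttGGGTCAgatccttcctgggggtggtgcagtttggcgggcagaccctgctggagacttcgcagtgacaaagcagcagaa

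Single hexamers are common letters and mark no site. Any of the 4 hexamers was found in 20 of the 49 member windows, belonging to 17 members, and in 38.6% of all windows. AGGTCA itself was found in 8 of the 49 member windows and in 14% of all windows. These 8 belong to 7 members, Nr1d2, Nr6a1, Pparg, Rarg, Rxra, Rxrg and Thrb. No member window held a direct repeat with a spacer of 1 to 4 bases, which 0.164%, 0.174%, 0.0396% and 0.067% of all windows did. The E-box CACGTG, bound by the circadian clock factors, was found in 2 of the 49 member windows, of Rara and Thrb, and in 6.02% of all windows.

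Levels of the members in wildtype differed widely per kb of annotated exon. Thra, the thyroid hormone receptor α gene, stood far above the others at 9897 ± 127 per kb (SD, n = 3). The circadian repressor Nr1d1 followed at 826 ± 44.6, then the corepressor Ncor1 at 655 ± 6.85, the coactivator Ncoa1 at 562 ± 6.63 and the common partner receptor Rxrb at 552 ± 11.6. Nr1d1 shares 263 exonic bases with Thra on opposite strands, and the part of Thra reads in its level was not tested. Ncoa1 and Rxrb did not differ beyond their spread. At the low end were Nr1h3 (14.2 per kb), Esr1 (14.8), Pparg (8.01), Esrrb (3.94) and Vdr (0.725). Vdr, the vitamin D receptor, was at 6.03, 4.21 and 2.06 normalized counts in wildtype and at 7.94, 1.83 and 2.02 in the KO-labelled libraries, and fell under the filter of 10 normalized counts in at least 3 libraries. The other 33 members were tested, and of these only Esrrb had a value under 10 in any library.

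**Figure D1:**
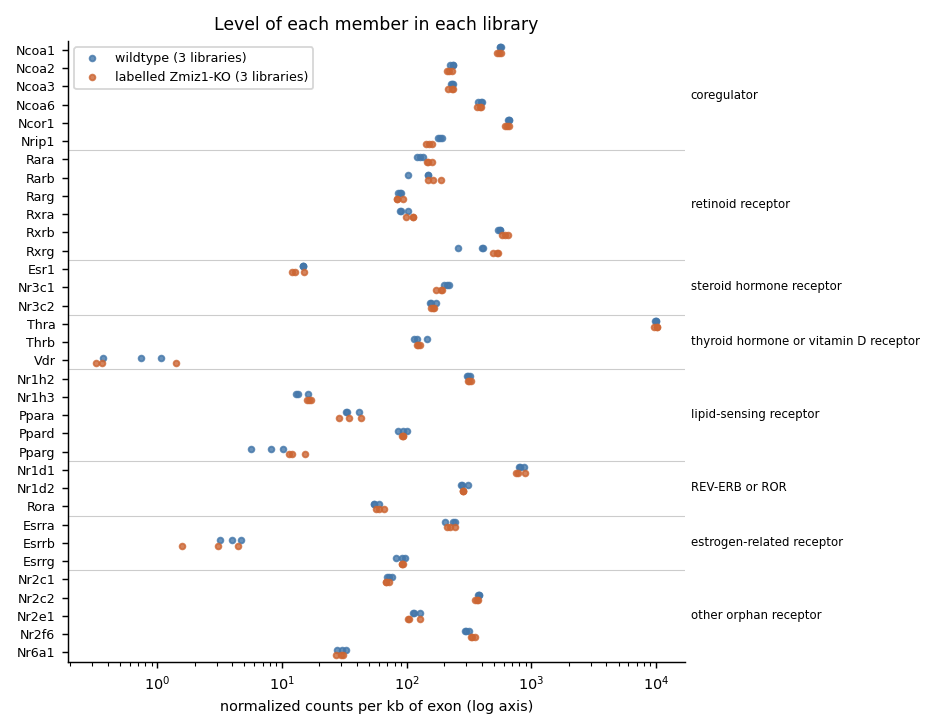
Level of each of the 34 members in each library, in normalized counts per kb of annotated exon on a log axis, with wildtype in blue, KO-labelled libraries in orange and members grouped by role. Thra (9897 per kb in wildtype) is the highest and Vdr (0.725) the lowest in all 6 libraries, and within most genes the 6 points lie almost on top of each other.

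Most members differed little between the groups. Of the 33 tested, 1 passed the threshold of an adjusted p of 0.05 (limma on log2(value + 1), Benjamini-Hochberg adjustment over 15800 tested genes), Nrip1, which was lower, beside 65 genes or 0.411% of all tested genes in either direction and 0.247% in the lower direction. The point estimates were higher in 14 members and lower in 19, with a median log2 fold change of -0.02 against -0.00018 over all tested genes. Their median absolute log2 fold change was 0.05 against 0.07. The highest library was a median of 1.195 times the lowest in the members and 1.205 times in all tested genes, so the members varied among the 6 libraries about as much as other genes did. Wildtype and KO-labelled values were fully apart in 8 members, 5 higher and 3 lower in the KO-labelled libraries, and in 16.3% of all tested genes (8.1% higher, 8.16% lower). An unadjusted p under 0.05 was found for 8 members, Nrip1, Nr3c1, Nr2f6, Pparg, Rara, Rxra, Rxrb and Rxrg, or 24.2%, and for 1733 or 11% of all tested genes.

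**Figure D2:**
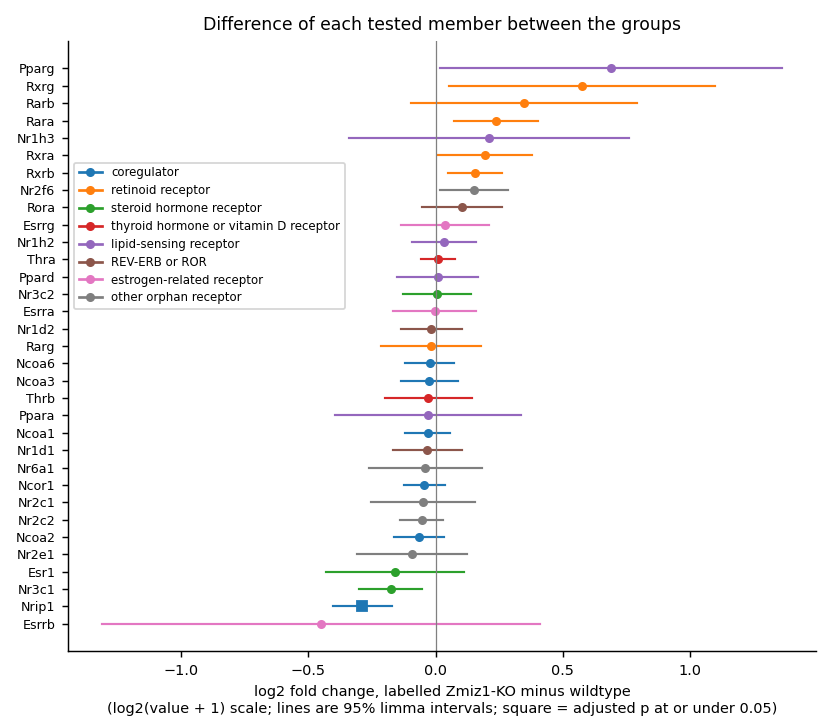
Log2 fold change of the 33 tested members, labelled Zmiz1-KO minus wildtype on the log2(value + 1) scale, sorted by size and coloured by role; lines are 95% limma intervals. Nrip1 (square) is the only member with an adjusted p at or under 0.05, and 5 of the 6 retinoid receptors lie to the right of 0.

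Among the coregulators, Nrip1 fell in the KO-labelled libraries. Nrip1 (ENSMUSG00000048490.14, chr16:76287400-76373827, minus strand) codes for RIP140, a corepressor that ligand-bound receptors recruit and whose own transcription retinoic acid and estrogen can raise. It was at 2204, 2037 and 2110 normalized counts in wildtype and at 1831, 1734 and 1636 in the KO-labelled libraries. Every wildtype library lay above every KO-labelled library. The group means were 2117 ± 83.8 and 1734 ± 97.3 (SD, n = 3), and the log2 fold change was -0.29 ± 0.055 SE with a 95% interval from -0.40 to -0.17 and an adjusted p of 0.0271 (limma, as are all adjusted p values below). An exact permutation test gave p = 0.1, the smallest that 3 against 3 libraries allow. The call was lost without wildtype replicate 1 (adjusted p = 0.121), wildtype replicate 3 (0.0704), or KO-labelled replicate 1 (0.0511) or 3 (0.223), while the log2 fold change without any 1 library stayed between -0.33 and -0.25. No exon of Nrip1 overlaps another gene, and none of its 75-base stretches occurs in a transcript of another gene.

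The other 5 coregulators were all within 5% of wildtype in the mean. The p160 coactivators Ncoa1, Ncoa2 and Ncoa3, which bring histone acetylation to receptors, had log2 fold changes of -0.03, -0.07 and -0.03. Ncoa6, a coactivator found in a histone methyltransferase complex, was at -0.02, and Ncor1, the corepressor that carries histone deacetylase 3, at -0.04. The adjusted p was between 0.657 and 0.913 for these 5. Their 95% intervals ran from -0.16 at the lowest (Ncoa2) to 0.09 at the highest (Ncoa3). The point estimate was lower in 6 of 6 coregulators, but it turned for Ncoa3 without KO-labelled replicate 3 and for Ncoa6 without KO-labelled replicate 1.

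**Figure D3:**
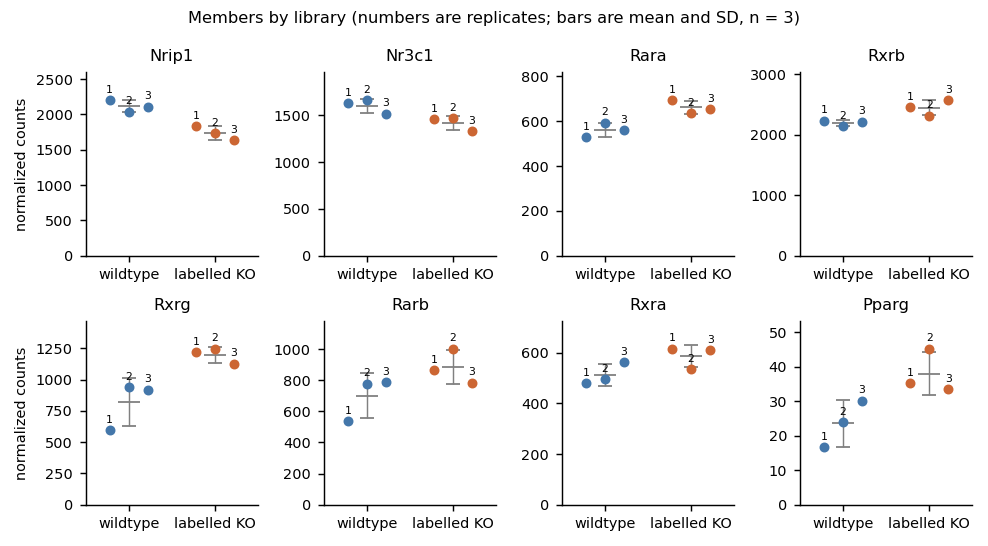
Normalized counts of 8 members in each library, with the replicate number above each point and bars for mean and SD (n = 3); axes start at 0. The groups are separate in Nrip1, Nr3c1, Rara, Rxrb, Rxrg and Pparg and overlap in Rarb and Rxra, and wildtype replicate 1 is the lowest of the 6 libraries in Rara, Rxrg, Rarb, Rxra and Pparg.

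The retinoid receptors mostly had higher point estimates in the KO-labelled libraries, with none past the threshold. RARs bind retinoic acid, and RXRs are their obligate partners as well as those of the thyroid hormone, vitamin D, PPAR and LXR receptors. The point estimate was higher in 5 of 6 (median log2 fold change 0.22), 4 had an unadjusted p under 0.05 (limma), and the groups did not overlap, on the higher side, in Rara, Rxrb and Rxrg. Over all tested genes these shares were 11% and 8.1%.

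Rxrg (chr1:167598384-167639623) had the widest gap. It was at 596, 941 and 920 normalized counts in wildtype and at 1220, 1246 and 1126 in the KO-labelled libraries. All 3 of the latter lay above wildtype, and wildtype replicate 1 lay far below the other wildtype libraries. The log2 fold change was 0.58 ± 0.20 SE (95% interval 0.05 to 1.10, adjusted p = 0.412). Without wildtype replicate 1 the log2 fold change was 0.36 and the adjusted p 0.0486, the only fit in which a member other than Nrip1 was called. Rarb (chr14:16430839-16819156), whose promoter repeat is printed above, was at 536, 778 and 788 in wildtype and at 863, 1001 and 785 in the KO-labelled libraries. These overlap, since replicate 3 of the latter lay between the upper wildtype values. The log2 fold change was 0.35 ± 0.18 SE (adjusted p = 0.563), and 0.17 without wildtype replicate 1. Rarb shares 38.4% of its exonic bases with genes on the opposite strand, chiefly Top2b, and 32.1% of its 75-base stretches occur in transcripts of other genes. The kit does not mark strand, so reads of Rarb and Top2b cannot be told apart there; Top2b itself was at 8619 ± 278 and 8348 ± 382 (log2 fold change -0.05).

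Rxrg and Rarb are both known for high expression in the striatum, which lies under the cortex. The 8 striatal projection neuron markers, among them Drd1, Drd2, Adora2a and Penk, had their lowest sum in the library where Rxrg and Rarb were lowest and their highest where these were highest. Their sum was 11158, 15105 and 15665 normalized counts in wildtype and 17228, 18208 and 16473 in the KO-labelled libraries. All 8 had a higher point estimate in the latter, 0 passed the threshold (limma; 2 had an unadjusted p under 0.05), and the sums of the groups did not overlap. Set against the wildtype mean, wildtype replicate 1 was at 0.728 for Rxrg, 0.765 for Rarb and 0.798 for the striatal sum, and KO-labelled replicate 2, the highest of all, was at 1.521, 1.428 and 1.303. The sum of 8 interneuron markers was also without overlap, at 17507, 21842 and 19696 in wildtype and 23013, 24724 and 23308 in the KO-labelled libraries, with 8 of 8 higher, 0 called and 5 at an unadjusted p under 0.05. Of its wildtype mean of 19682, Gad1, Gad2 and Slc32a1 held 4630, 3390 and 3384. These 3 are genes of GABA neurons in general, so this sum is not particular to interneurons. Their log2 fold changes were 0.30, 0.33 and 0.34. Those of the other markers were 0.20 for Sst, 0.13 for Npy, 0.27 for Lhx6, 0.20 for Calb2 and 0.32 for Vip. Slc32a1, Sst and Lhx6 had groups without overlap, and Sst had the lowest adjusted p of the list (0.0598, limma). The sum of 8 meningeal fibroblast markers was 12202, 14825 and 15238 against 16931, 18568 and 16553, again with 8 of 8 higher, 0 called and 6 at an unadjusted p under 0.05. Over all tested genes, 11% had an unadjusted p under 0.05 (limma). These sums, like the striatal one, were lowest in wildtype replicate 1 and highest in KO-labelled replicate 2. No striatal, interneuron or meningeal marker was at 0 in any library. The part of these cells in the receptor values was not tested, and in bulk tissue a change in the number of cells of a type and a change in RNA per cell cannot be told apart.

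**Figure D4:**
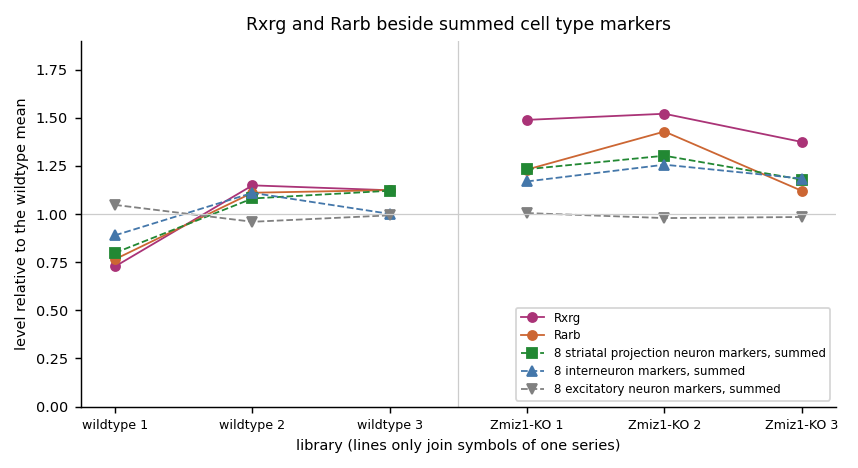
Rxrg, Rarb and summed markers of striatal projection neurons, interneurons and excitatory neurons in each library, as a ratio to the wildtype mean (1 on the axis). Rxrg, Rarb, the striatal sum and the interneuron sum are all lowest in wildtype replicate 1 (0.728, 0.765, 0.798 and 0.890) and highest in KO-labelled replicate 2, and the excitatory neuron sum stays between 0.960 and 1.047. Of the 8 excitatory neuron markers, 7 had a lower point estimate in the KO-labelled libraries and 1 was called. Camk2a and Slc17a7 held 24233 and 19640 of the sum's wildtype mean of 61936, with log2 fold changes of 0.05 and -5.5e-06. The other markers were all lower, from -0.07 (Cux1) to -0.42 (Neurod1, the one called).

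Rara and Rxrb, which are expressed more broadly, had smaller gaps with less spread. Rara (chr11:98927818-98974942) was at 529, 594 and 559 normalized counts in wildtype and at 694, 635 and 653 in the KO-labelled libraries. Its log2 fold change was 0.24 ± 0.078 SE (95% interval 0.07 to 0.40, adjusted p = 0.241). Rxrb (chr17:34031812-34038399), the most abundant of the 6 per kb, was at 2226, 2141 and 2215 and at 2452, 2313 and 2572. Its log2 fold change was 0.16 ± 0.050 SE (adjusted p = 0.240), with a range of adjusted p from 0.0882 to 0.678 over the alternatives. Rxra (chr2:27676440-27762957) was at 480, 496 and 563 and at 615, 536 and 609, which overlap (log2 fold change 0.19, adjusted p = 0.427). Rarg (chr15:102234938-102257517) was at 363, 387 and 380 and at 357, 402 and 358, with a log2 fold change of -0.02 and a 95% interval from -0.22 to 0.18. The point estimates of Rara, Rarb, Rxra, Rxrb and Rxrg were higher in all 15 alternatives, whereas that of Rarg changed sign without 3 of the single libraries. In some of the 15 the sign could not change. The changed filters, median-ratio scaling, the replicate block and no robust estimation leave a log2 fold change as it is. Without wildtype replicate 1 the log2 fold changes were 0.20 for Rara, 0.15 for Rxra and 0.17 for Rxrb.

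Of the steroid hormone receptors, the glucocorticoid receptor alone had groups without overlap. Nr3c1, which codes for it (chr18:39410545-39519421), was at 1628, 1664 and 1518 normalized counts in wildtype and at 1458, 1467 and 1331 in the KO-labelled libraries. The groups did not overlap, and the log2 fold change was -0.18 ± 0.059 SE (95% interval -0.30 to -0.05), with an adjusted p of 0.249. Nr3c2, the mineralocorticoid receptor that binds the same hormone with higher affinity, was at 1041 ± 60.2 and 1044 ± 23.2 (SD, n = 3; log2 fold change 0.0047, 95% interval -0.13 to 0.14). Esr1, estrogen receptor α, was at 203, 202 and 202 and at 175, 166 and 204 (log2 fold change -0.16, adjusted p = 0.704). The last of these libraries matched wildtype, and without it the log2 fold change was -0.25, against -0.10 without KO-labelled replicate 2.

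Both thyroid hormone receptors had overlapping groups. Thra was at 46248, 45072 and 45670 normalized counts in wildtype and at 46557, 44721 and 46613 in the KO-labelled libraries. The log2 fold change of 0.01 had the narrowest interval of the receptors, from -0.06 to 0.08. Thrb, the second thyroid hormone receptor, was at 1075, 844 and 898 and at 915, 940 and 893 (log2 fold change -0.03, 95% interval -0.20 to 0.14). Thra on chr11:98740638-98769006 and Nr1d1 on chr11:98767932-98775333 lie tail to tail and share 263 exonic bases on opposite strands, 5.7% of Thra and 8.55% of Nr1d1, where their reads cannot be told apart without strand. Per kb of exon, Thra was at 9897 and Nr1d1 at 826 in wildtype, and the part of Thra reads in the Nr1d1 values was not tested.

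Among the lipid-sensing receptors, Pparg had the highest log2 fold change of all members on few reads. Pparg, the fatty acid receptor of fat cells and macrophages, was at 16.7, 24.0 and 30.3 normalized counts in wildtype and at 35.3, 45.2 and 33.6 in the KO-labelled libraries. The groups did not overlap, and the log2 fold change was 0.69 ± 0.32 SE (95% interval 0.02 to 1.36, adjusted p = 0.439), or 0.47 without wildtype replicate 1. Ppara and Ppard, the other fatty acid receptors, had log2 fold changes of -0.03 and 0.01, with 95% intervals from -0.39 to 0.34 and from -0.15 to 0.17. The oxysterol receptors Nr1h2 (LXRβ) and Nr1h3 (LXRα) were at 1046 ± 27.0 against 1070 ± 23.6 and at 35.8 ± 4.53 against 41.4 ± 1.37 (SD, n = 3; log2 fold changes 0.03 and 0.21, adjusted p = 0.900 and 0.837).

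The circadian receptors overlapped between the groups. Nr1d1 and Nr1d2, the REV-ERB repressors of the clock, were at 2542 ± 137 against 2489 ± 233 and at 1551 ± 105 against 1531 ± 9.91 normalized counts (log2 fold changes -0.03 and -0.02). Rora, which activates through the same elements, was at 714, 715 and 783 in wildtype and at 745, 853 and 783 in the KO-labelled libraries (log2 fold change 0.10, adjusted p = 0.653), and its log2 fold change without KO-labelled replicate 2 was 0.05. The adjusted p was 0.904 for Nr1d1 and 0.947 for Nr1d2.

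The estrogen-related receptors, orphan regulators of mitochondrial genes, overlapped as well. Esrra was at 995 ± 94.5 against 992 ± 70.7 normalized counts and Esrrg at 561 ± 48.2 against 575 ± 8.79 (log2 fold changes -0.0032 and 0.04). Esrrb was scarce, at 28.4, 19.2 and 24.0 in wildtype and at 9.63, 18.6 and 26.9 in the KO-labelled libraries, and its interval, -1.31 to 0.41, was the widest of the 33. Its log2 fold change of -0.45 was -0.07 without KO-labelled replicate 1 and -0.77 without KO-labelled replicate 3.

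Of the other orphan receptors, Nr2f6, a COUP-TF relative, was at 941, 894 and 883 normalized counts in wildtype and at 974, 998 and 1049 in the KO-labelled libraries (log2 fold change 0.15, adjusted p = 0.378). The groups did not overlap, but 54.4% of its exonic bases lie opposite Ocel1, which was at 381 ± 74.0 and 362 ± 79.0 with overlapping groups. Nr2c2 (TR4) was at 5548, 5710 and 5667 and at 5527, 5492 and 5278, so that the closest libraries almost met (log2 fold change -0.05, adjusted p = 0.662). It shares 31.2% of its exonic bases with the opposite strand, chiefly Mrps25 (log2 fold change 0.02). Nr2c1 (TR2), Nr2e1 (Tlx, a factor of neural stem cells) and Nr6a1 had log2 fold changes of -0.05, -0.09 and -0.04, with overlapping groups and adjusted p values of 0.903, 0.811 and 0.930. The log2 fold change of Nr2e1 was -0.20 without KO-labelled replicate 2 and -0.03 without KO-labelled replicate 3, and that of Nr2c1 was -0.02 without wildtype replicate 1 and -0.08 without wildtype replicate 2. Top2b, Ocel1 and Mrps25 were chosen after their values were seen.

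Genes that act around these receptors were counted in 8 lists made by known role. Of 145 listed symbols, 144 were in the table and 128 were tested. Of these 2 passed the threshold, Dio2 and Rorb, both lower in the KO-labelled libraries. Over all tested genes 0.411% passed in either direction and 0.247% in the lower direction. The median log2 fold change over the 128 was 0.0088, and 24 of the 128 had groups without overlap, 10 higher and 14 lower, beside the 16.3% of all tested genes given above.

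Dio2 is the deiodinase with which astrocytes turn the prohormone T4 into the active T3 for neurons. It was at 1793, 1527 and 1519 normalized counts in wildtype and at 1161, 1239 and 1058 in the KO-labelled libraries. Every wildtype library was higher, and the log2 fold change was -0.48 ± 0.074 SE (adjusted p = 0.00986). The call was lost without KO-labelled replicate 1 (adjusted p = 0.0603) or 3 (0.0818), with log2 fold changes of -0.49 and -0.42. Of the 13 tested genes of thyroid hormone handling and its targets, 10 had a lower point estimate and 1 passed, with a median log2 fold change of -0.10. Slco1c1, the carrier of T4 at the blood-brain barrier and in astrocytes, was at 2338, 2100 and 2100 and at 1870, 2004 and 1831 (log2 fold change -0.20, adjusted p = 0.183). Summed astrocyte markers were at 69114 to 74379 in wildtype and at 63401 to 71310 in the KO-labelled libraries, with 6 of 8 lower and 1 called, and summed endothelial markers at 7454 to 7688 and 7440 to 8117; their part in Dio2 and Slco1c1 was not tested.

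Rorb, a receptor of layer 4 neurons, was the only one called of the 11 tested nuclear receptors outside the 34. It was at 1776, 1529 and 1627 normalized counts in wildtype and at 1331, 1156 and 1170 in the KO-labelled libraries (log2 fold change -0.43 ± 0.068 SE, adjusted p = 0.00856). Its relative Rora had the opposite sign, and the difference between these genes was not tested. Without KO-labelled replicate 3, the adjusted p of Rorb was 0.0975. Summed excitatory neuron markers overlapped, at 59436 to 64863 and 60627 to 62240, with 7 of 8 lower and 1 called. Camk2a and Slc17a7, with log2 fold changes of 0.05 and -5.5e-06, held the largest parts of this sum. The part of these markers in Rorb was not tested.

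In the retinoid list, which holds binding proteins, enzymes and targets of retinoic acid, 0 of 17 tested genes passed the threshold (limma). A higher point estimate was found for 14, with a median log2 fold change of 0.15. An unadjusted p under 0.05 was found for 5 of the 17, and for 11% of all tested genes. Stra6, the membrane receptor that takes up retinol, was at 384, 360 and 330 normalized counts in wildtype and at 423, 456 and 485 in the KO-labelled libraries. The log2 fold change was 0.34 ± 0.095 SE (adjusted p = 0.168). Aldh1a2, the retinoic acid synthase of the meninges, was at 438, 558 and 470 and at 558, 644 and 579 (log2 fold change 0.29, adjusted p = 0.257), and is also in the meningeal list described above. Both had groups without overlap, though in Aldh1a2 only by a narrow margin.

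The remaining 5 lists had no gene past the threshold in limma, and medians near 0. An unadjusted p under 0.05 was found for 0 of their glucocorticoid and mineralocorticoid genes, 2 clock genes, 1 LXR target, 3 PPAR and ERR targets and 4 coregulators. Over all tested genes, 11% had such a p. Of 17 tested genes of glucocorticoid and mineralocorticoid handling and targets, 10 were higher (median log2 fold change 0.02), with Sgk3 at -0.18 (adjusted p = 0.564) and the glucocorticoid-induced Tsc22d3 at -0.11 (0.586) as the lowest adjusted p values. Of 19 clock genes, 11 were lower (median -0.03), with Per3 at -0.24 (adjusted p = 0.185) and Clock at -0.15 (0.234). Clock was at 1776, 1782 and 1789 normalized counts in wildtype and at 1601, 1606 and 1598 in the KO-labelled libraries, with an SE of 0.049 on its log2 fold change. Of 10 LXR targets, 7 were lower (median -0.03), with Mylip, which degrades the LDL receptor, at -0.19 (adjusted p = 0.280) and Scd2 at -0.05 (0.551). Of 19 PPAR and ERR metabolic targets, 13 were higher (median 0.03), with Angptl4 at 0.20 (adjusted p = 0.415). Of 22 further coregulators, 13 were higher (median 0.0083), with Gps2, a subunit of the Ncor corepressor complex, at 0.25 (adjusted p = 0.238) and the acetyltransferase gene Ep300 at -0.14 (0.328).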

How the data were processed

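Total RNA of P7 cortices (TruSeq RNA kit v2, which does not mark strand) was sequenced in 3 libraries per group. The authors aligned the reads to mm10 with STAR in Illumina BaseSpace and normalized counts with DESeq2, and the deposited table holds these normalized signal values; versions, annotation and strand setting are not given in the sources used here. The smallest step between low values was 1.83 to 2.11, and low values lay near its multiples (within 0.05 steps for 63.0% to 80.4% of values under 20 steps). Of values of at least 200 steps, 9.75% to 10.4% did. The step was rounded, and at that size the rounding alone can exceed 0.05 steps, so this share cannot show whether they were whole multiples. Whole reads were not recovered, and count models were not run. The sum divided by the step gave the estimated reads.

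Genes with at least 10 in at least 3 libraries (15800) were compared on log2(value + 1) with limma 3.58.1 (R 4.3.3; mean trend, robust, no covariate), which understates the change of low genes. P values were two-sided, with Benjamini-Hochberg adjustment over all tested genes. The procedure was tested on simulated data. Named genes are the 34 members, Zmiz1, Emx1, Xist and Ddx3y. Of each list, those past the threshold or else the 2 with the lowest adjusted p are named. Slco1c1, Top2b, Ocel1, Mrps25 and the single markers given beside their sums were added after their values were seen. Single values of some listed genes are not reported here, although counts and sums over the lists include them. Members and lists were chosen with earlier results of these data known. Lists of 8 markers per cell type (5 for erythrocytes) were summed. Positions, exon lengths and overlaps are from GENCODE M21 (GRCm38), promoters from RefSeq (GRCm38.p6). Alternatives were pseudocounts of 0.1 and 10, no filter, at least 10 in every library, upper-quartile and median-ratio scaling, an Xist covariate, the replicate number as a block, no robust estimation, and each library left out. Figures were drawn with matplotlib 3.10.9 (Python 3.11.15).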

Additional observations from a re-analysis of the deposited data

How the results depend on the processing

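Of 524 log2 fold changes of the 33 tested members, Dio2 and Rorb under the 15 alternatives, 485 kept their sign and their side of the threshold, 10 lost the call, 1 gained it (Rxrg without wildtype replicate 1) and 28 changed sign, in 13 genes that were never called. The changed filters, median-ratio scaling, the replicate block and no robust estimation leave a log2 fold change as it is, so no sign could change there. Median-ratio scaling, applied to values already normalized, returned the main fit. With the replicate number as a block (replicate block), 168 genes were called against 65, with the same 1 member and 2 list genes. Deviations of wildtype and KO-labelled libraries with the same number correlated at -0.00509, -0.113 and -0.00627, and those with different numbers at -0.0961 to 0.106. These values show no pairing by number, but they cannot exclude a shared litter or run, which the labels do not give. Without robust estimation 17 genes, 0 members and 0 list genes were called (limma; Nrip1 adjusted p = 0.0987, with 9 members at an unadjusted p under 0.05). Without single libraries, 12 to 152 genes, 0 to 1 members and 0 to 2 list genes were called: 12 without KO-labelled replicate 3, 17 without replicate 1, 152 without replicate 2, and 30 without wildtype replicate 1. Esrra turned to 0.0030 with upper-quartile scaling and 0.0021 with the Xist covariate, and Ppara to 0.0084 with the latter. Without single libraries, log2 fold changes ranged from -0.082 to 0.051 for Esrra, -0.030 to 0.094 for Esrrg, -0.109 to 0.013 for Nr1d1, -0.046 to 0.038 for Nr1d2, -0.023 to 0.052 for Nr3c2, -0.110 to 0.020 for Nr6a1, -0.176 to 0.114 for Ppara, -0.049 to 0.066 for Ppard, -0.074 to 0.011 for Rarg, -0.00099 to 0.029 for Thra, -0.102 to 0.073 for Thrb, -0.055 to 0.017 for Ncoa3 and -0.052 to 0.0084 for Ncoa6. The depth of 15486928 to 17848076 estimated reads limits Vdr, Esrrb, Pparg and Nr1h3, which had the lowest values.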

Other observations

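Markers of the remaining cell types overlapped between the groups. Summed over 8 genes each, oligodendrocyte lineage markers were at 12010 ± 699 normalized counts in wildtype and 11460 ± 319 in the KO-labelled libraries (SD, n = 3), with 6 of 8 lower, and microglia markers at 5070 ± 176 and 4941 ± 125, with 5 of 8 lower. The 5 erythrocyte genes summed to 8378 to 12198 and 8042 to 9117, with 1 of 4 tested genes higher and 1 of the 5 at 0 in at least 1 library. None of these lists, nor choroid plexus (1 of 8 higher), had a gene past the threshold in limma. An unadjusted p under 0.05 was found for 3 oligodendrocyte lineage, 2 microglia, 0 erythrocyte and 0 choroid plexus genes, and for 11% of all tested genes.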
